A study of Sus scrofa with 64 samples.

Results

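Weaned piglets of 6 weeks of age that went without feed for 48 h were compared with age-matched piglets that kept their feed. The samples were those whose titles name the age and the feeding state, 16 fasted and 16 fed pigs of 6 weeks, 32 of the 64 pigs sequenced. All were female TN20 piglets, a cross of Large White and Norwegian Landrace. They stayed with the sow without creep feed until 4 weeks of age. They then spent 2 weeks, in pairs, on a standard weaning diet at a research facility. The labels do not say which pigs shared a pen, so pen mates entered the tests as separate samples. Fasted piglets had no feed for the last 48 h before slaughter, fed piglets had feed throughout, and all had free access to water. The other 32 pigs, of 4 weeks, were fed pigs kept with the sow and fasted pigs kept in a separate pen on the farm. They were fitted together with the 6-week pigs, so they share in the filter and in the estimated spread, and their own response is given at the end. Each library came from 1 pig, from mucosa scraped with glass slides off the washed jejunum at 50% of the length of the small intestine, so it holds epithelium together with lamina propria and any muscle taken along. Fewer cells of a type and less RNA per cell cannot be told apart in such samples.

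The jejunal epithelium is fed from its lumen as well as from the blood. It absorbs sugars, peptides, fat, bile acids and minerals, burns glutamine, builds chylomicrons from dietary fat and renews itself from crypts. In a fast, insulin falls and glucagon and free fatty acids rise. In many tissues this lets FOXO factors into the nucleus, blocks pyruvate oxidation through the pyruvate dehydrogenase kinases, lowers the SREBP programmes of fat and sterol synthesis and opens autophagy. In pigs as in other mammals the small intestine carries the enzymes of gluconeogenesis.

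The 6-week libraries held 19047515 to 19755780 counts on genes, and 14062 genes passed the filter on low counts. Levels are given below as CPM, counts scaled to a common library size after adjustment by TMM, with the lowest, the median and the highest of the 16 pigs of a group. The tissue matched its label. VIL1, which marks the brush border, ran at 2310 to 4012 CPM in fasted and 2761 to 4536 CPM in fed pigs. The skeletal muscle genes ACTA1, TNNT3 and NEB stayed under 1 CPM in all 32 pigs, although the extraction text in the labels speaks of muscle. CKM reached 0.814 CPM in fasted and 1.12 CPM in fed pigs, and TNNI2 1.87 CPM in fasted and 0.748 CPM in fed pigs. TNNC2, a troponin, ran at 5.79 to 14.4 CPM in fasted and 6.17 to 15.7 CPM in fed pigs. The leading principal component of log2 CPM held 28.1% of the variance. On it, 15 of the fasted pigs lay at -58.6 to -4.25 and 15 of the fed pigs at 9.49 to 55.1. Fasted pig 51, at 18.1, lay among the fed pigs, and fed pig 46, at -14.5, among the fasted ones. Pig 51 was the lowest fasted pig in 30.1% of all genes that rose and the highest in 25.5% of those that fell. Pig 46 was the highest fed pig in 33.2% of the genes that rose and the lowest in 22.8% of those that fell. Both were kept in all values below, and values without them are given where they move a result. A further fit, called the marker fit below, added each pig's level of smooth muscle markers and of B cell markers to the model. Each fasted pig lay below the fed median in the summed smooth muscle level. That fit can therefore also take up part of the fasting change, and a call lost in it does not tell which.

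**Figure D1:**
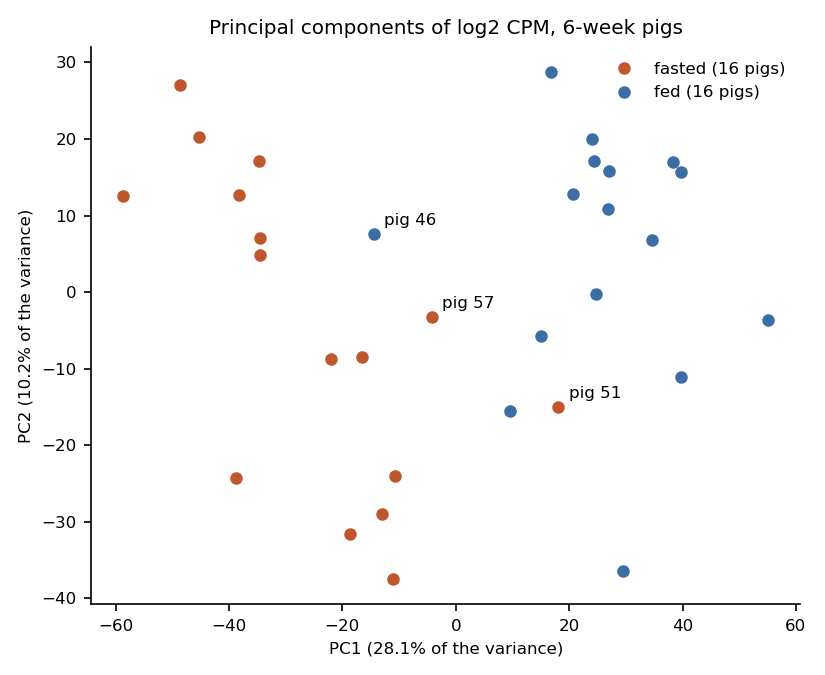
Position of the 32 pigs of 6 weeks on the first (x axis) and second (y axis) principal component of log2 CPM, in component units, 1 point per pig, with fasted pigs in orange and fed pigs in blue. Fasted pigs lie left of fed pigs, apart from fasted pig 51 at 18.1 and fed pig 46 at -14.5 on the first component.

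At an adjusted p under 0.05, 3197 genes rose in fasted pigs (22.7% of those tested) and 2588 fell (18.4%), together 41.1%. The median log2 fold change of all genes was 0.01. At least 2-fold changes were few, with 280 rises (1.99%) and 266 falls (1.89%). In 52 genes (0.37%) the fasted and fed pigs did not overlap at all, 23 with every fasted pig above every fed pig (0.164%) and 29 with every fasted pig below (0.206%). Because about 2 in 5 genes passed the threshold, each gene list below is read against those background shares. Folds are given as log2 fold changes, fasted over fed, with the standard error (SE) for the main genes.

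Among the genes that decide the fate of pyruvate, the largest rise was that of PDK4, a kinase that turns off pyruvate dehydrogenase (chromosome 9, 75246956 to 75260134, build Sscrofa11.1). PDK4 stood at 26.8, 66.8 and 140 CPM in fasted pigs, against 3.40, 6.66 and 14.2 CPM in fed pigs. Its log2 fold change was 3.43 (SE 0.24, adjusted p = 1.5e-17). Every fasted pig lay above every fed pig. PDK2, a second kinase of the complex, had 7.79, 16.8 and 22.0 CPM in fasted pigs and 4.98, 7.28 and 9.48 CPM in fed pigs, with 14 of 16 fasted pigs above all fed pigs (log2 fold change 1.19, SE 0.16, adjusted p = 4.8e-08). PDK3 rose as well (0.31), while PDK1 was at 0.11 and did not pass. PDPR, which restrains the phosphatase that reactivates the complex, rose (0.37), and the phosphatase PDP2 fell (-0.43). Of the subunits, DLAT (-0.43), DLD (-0.40) and PDHX (-0.53) fell, and PDHA1 and PDHB did not pass (-0.12 and -0.09). Of the 14 genes of this list 5 rose and 5 fell.

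KLF11, a Krüppel-like transcription factor (chromosome 3, 126419011 to 126429890), gave the smallest p of all genes. Its levels were 7.08, 11.6 and 21.9 CPM in fasted pigs, against 1.64, 2.13 and 3.85 CPM in fed pigs (log2 fold change 2.35, SE 0.16, adjusted p = 1.2e-17). The groups did not overlap, and pigs 51 and 46 each lay within their own group, at 9.66 and 3.47 CPM. KLF15, another factor of this family known for fasting metabolism in the mouse, also rose (1.91).

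Gluconeogenic genes rose more often than the background share, 7 of 14, with 2 falls and a median log2 fold change of 0.57. PCK1, the cytosolic phosphoenolpyruvate carboxykinase that commits carbon to the pathway, had 452, 1843 and 3111 CPM in fasted pigs, against 40.9, 115 and 639 CPM in fed pigs (3.42, SE 0.38, adjusted p = 3.1e-10). The overlap came from 1 fed pig, 46, which was higher than fasted pigs 51 and 57. G6PC1, the phosphatase that releases free glucose, had 125, 334 and 585 CPM in fasted pigs, against 16.0, 47.8 and 184 CPM in fed pigs (2.51, SE 0.31, adjusted p = 3.1e-09). Again fed pig 46 alone reached into the fasted range. FBP1 (1.49), the mitochondrial PCK2 (1.23), FBP2 (0.83), pyruvate carboxylase PC (0.73) and the glucose 6-phosphate carrier SLC37A4 (0.58) rose. GOT1, GPT2 and MDH1 did not pass. PPARGC1A, the coactivator that raises these genes in liver, fell to 6.68, 12.1 and 19.8 CPM in fasted pigs, against 18.6, 27.2 and 39.3 CPM in fed pigs (-1.09, SE 0.16, adjusted p = 2.8e-07).

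Glycolysis went the other way in 12 of 19 genes, with 4 rises and a median of -0.44. PFKFB3 makes the fructose 2,6-bisphosphate that activates phosphofructokinase (chromosome 10, 64776315 to 64859118). It had 15.6, 33.7 and 75.0 CPM in fasted pigs, against 52.1, 151 and 293 CPM in fed pigs (-2.14, SE 0.23, adjusted p = 9.3e-11), and 14 of 16 fasted pigs lay below every fed pig. PFKP, a phosphofructokinase, had 71.8, 102 and 127 CPM in fasted pigs and 141, 191 and 249 CPM in fed pigs, with no overlap (-0.90, SE 0.08, adjusted p = 4.6e-13). Hexokinase HK2 (-1.19), PGK1 (-0.65), PGAM1 (-0.67), TPI1 (-0.58) and PKM (-0.54) fell. Among the 4 that rose were PFKFB4 (0.58) and PKLR (0.40).

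**Figure D2:**
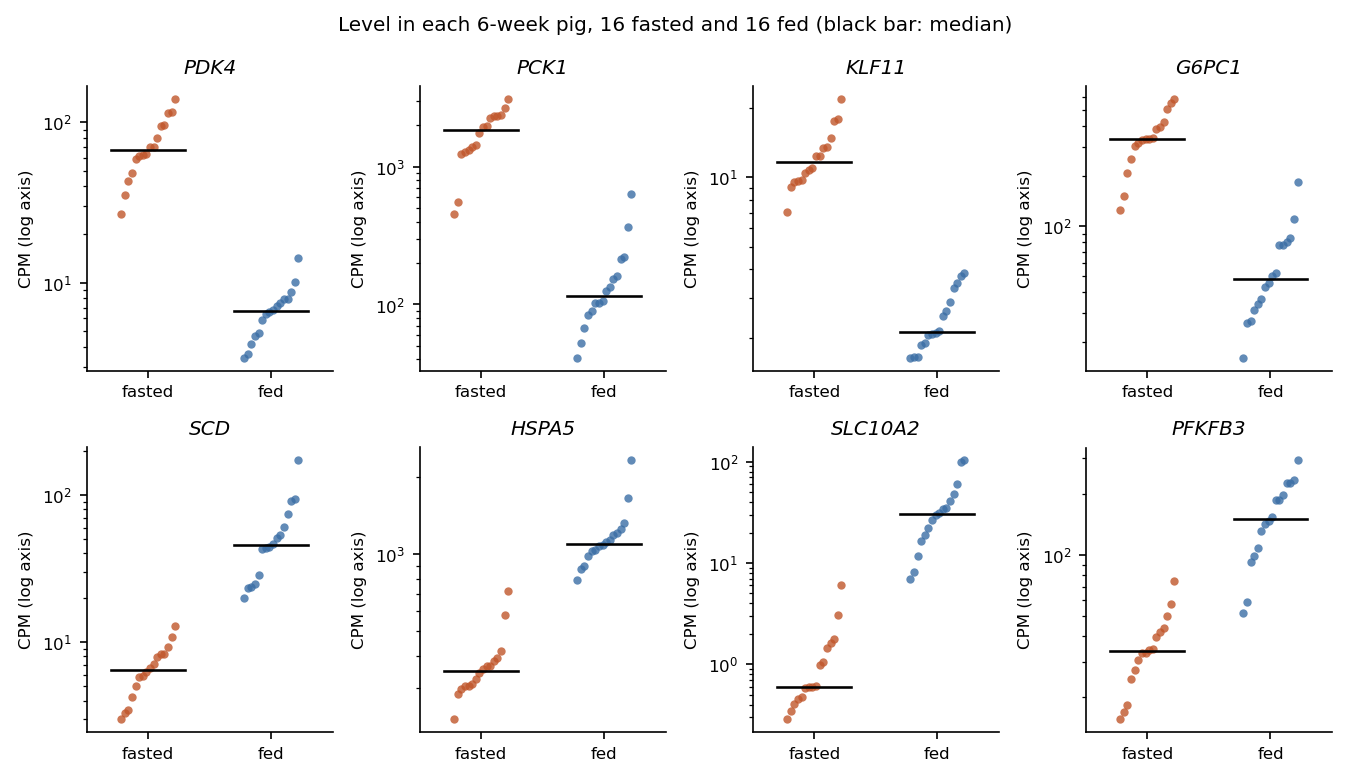
CPM on a log axis (y) of 8 genes in each 6-week pig, fasted left and fed right (x), 1 point per pig spread sideways by rank, black bars at group medians. PDK4, KLF11, SCD, HSPA5 and SLC10A2 do not overlap between the groups; in PCK1 and G6PC1 a single fed pig reaches the fasted range.

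Fat oxidation genes responded unevenly. Of 19 mitochondrial genes 6 rose and 2 fell, and the median was 0.11. ACAA2, the last thiolase of the spiral, had 29.9, 57.6 and 91.1 CPM in fasted pigs and 24.0, 30.3 and 39.1 CPM in fed pigs (0.90, SE 0.17, adjusted p = 1.4e-05). CPT1A (0.88), the gate for long-chain fatty acids, ACADL (0.61), the carnitine carrier SLC25A20 (0.60), DECR1 (0.37) and ETFDH (0.24) also rose. The medium-chain dehydrogenase ACADM fell, to 45.4, 62.4 and 123 CPM in fasted pigs against 76.6, 109 and 149 CPM in fed pigs (-0.75, SE 0.12, adjusted p = 1.7e-06). In peroxisomes 4 of 15 genes rose, among them CAT, which destroys hydrogen peroxide, with 129, 602 and 882 CPM in fasted pigs and 116, 165 and 479 CPM in fed pigs (1.51, SE 0.27, adjusted p = 9e-06), and CROT (0.75). Ketone body genes gave 2 rises of 6, BDH1 (0.94) and BDH2 (0.47, lost in the marker fit).

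Genes of the lipid droplet moved in both directions. PNPLA2, the first lipase of triglyceride breakdown, had 170, 259 and 365 CPM in fasted pigs, against 70.9, 108 and 256 CPM in fed pigs (1.05, SE 0.16, adjusted p = 2.5e-07). Its activator ABHD5 fell, with 34.9, 43.0 and 59.2 CPM in fasted pigs and 50.2, 77.0 and 128 CPM in fed pigs (-0.87, SE 0.14, adjusted p = 1.9e-06). The droplet coat PLIN2 rose (1.20) and so did the lipase inhibitor HILPDA (0.56), while the droplet fusion protein CIDEC fell (-0.71). Of the 21 genes of triglyceride synthesis and droplets 4 rose and 4 fell. The acyltransferases DGAT1 and DGAT2 were at 0.01 and -0.04 and did not pass. Among 11 genes of fatty acid uptake and activation, the very-long-chain transporter SLC27A2 (0.95), ACSF2 (0.65) and ACSL1 (0.45) rose, and ACSL3, ACSL4, ACSL5 and ACBD3 fell by 0.35 to 0.52 on the log2 scale.

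Chylomicron genes split. APOA4, an apolipoprotein of chylomicrons that is induced by dietary fat (chromosome 9, 44201587 to 44204072), had 1577, 2412 and 3724 CPM in fasted pigs, against 4065, 5224 and 14390 CPM in fed pigs (-1.46, SE 0.18, adjusted p = 2.2e-09). No fasted pig reached the lowest fed pig. APOC3 fell (-1.33), and APOBEC1, the editor of apolipoprotein B messages, had 15.9, 25.9 and 45.1 CPM in fasted pigs and 45.7, 90.1 and 181 CPM in fed pigs, again with no overlap (-1.69, SE 0.21, adjusted p = 5.3e-09). APOA1 rose (0.59, adjusted p = 0.0073), a call that was lost in the marker fit (0.40, adjusted p = 0.083). MTTP, the transfer protein that loads the particle, had 1159, 2068 and 3040 CPM in fasted pigs and 1308, 2288 and 2977 CPM in fed pigs and did not pass (-0.18, adjusted p = 0.3). Of all 11 genes of the list 1 rose and 3 fell, and 5 fell in the marker fit.

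Fatty acid synthesis fell in 12 of 18 genes with no rise and a median of -0.47. SCD, the desaturase that makes oleate (chromosome 14, 111461560 to 111478033), had 2.98, 6.43 and 12.8 CPM in fasted pigs, against 19.9, 45.5 and 172 CPM in fed pigs (-3.04, SE 0.25, adjusted p = 1.2e-14). The highest fasted pig was 51 and the lowest fed pig was 46, and they still did not cross. ME1, which supplies NADPH, also had separate groups, with 0.478, 0.941 and 1.35 CPM in fasted pigs and 1.52, 2.23 and 5.64 CPM in fed pigs (-1.51, SE 0.21, adjusted p = 4e-08). FASN (-1.03), ACACA (-0.68), ACLY (-0.49) and the elongase ELOVL6 (-1.23) fell. The regulators SREBF1 (0.10) and MLXIPL (0.29) did not pass.

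Sterol synthesis fell in 18 of 19 genes, with a median of -0.96. HMGCS1 had 55.3, 94.7 and 194 CPM in fasted pigs and 160, 270 and 504 CPM in fed pigs (-1.56, SE 0.21, adjusted p = 2.3e-08), and 15 of 16 fasted pigs lay below every fed pig. TM7SF2 fell by 1.54 on the log2 scale, IDI1 by 1.19 and SQLE by 1.16. Among the genes of sterol uptake and control, INSIG1 (-1.08) and SOAT1 (-0.50) fell. NPC1, which exports cholesterol from lysosomes, had 17.4, 22.2 and 28.0 CPM in fasted pigs and 29.4, 44.8 and 69.0 CPM in fed pigs with no overlap (-1.04, SE 0.11, adjusted p = 2.3e-11). Opposite to these, 6 of 10 LXR targets rose, with a median of 0.39. MYLIP, a ubiquitin ligase, had 30.3, 72.8 and 147 CPM in fasted pigs and 14.6, 34.9 and 57.7 CPM in fed pigs (1.23, SE 0.20, adjusted p = 1e-06). The receptor gene NR1H3 rose by 0.72, and the sterol exporters ABCG5 (0.61, 0.37 in the marker fit) and ABCG8 (0.37) rose as well. ABCA1 did not pass (-0.04), and the phospholipid enzyme LPCAT3 fell (-0.80).

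Genes of the secretory pathway fell at each station from entry to export. Among 23 chaperones and folding enzymes of the endoplasmic reticulum 20 fell, with a median of -0.82. HSPA5 (chromosome 1, 265930044 to 265934959) had 227, 350 and 716 CPM in fasted pigs, against 793, 1098 and 2314 CPM in fed pigs (-1.66, SE 0.16, adjusted p = 3.4e-12), and the groups did not overlap although pigs 51 and 57 were the highest fasted ones. HYOU1 had 80.8, 112 and 227 CPM in fasted pigs and 232, 306 and 539 CPM in fed pigs and did not overlap either (-1.43, SE 0.14, adjusted p = 1.1e-11). Calreticulin CALR fell by 1.01 and MANF by 1.39 on the log2 scale. The 3 that did not pass were DNAJC10 (-0.21), P4HB (-0.07) and ERO1A (-0.01). Of 21 genes of translocation and signal peptide removal 17 fell (median -0.32), led by the channel subunit SEC61A1 (-0.62) and the signal peptidase SEC11C (-0.67). Of 20 N-glycosylation genes 16 fell (median -0.32), and GFPT1, which feeds the hexosamine route, had 61.2, 94.9 and 161 CPM in fasted pigs and 138, 218 and 300 CPM in fed pigs (-1.15, SE 0.13, adjusted p = 7.3e-10). Of 24 vesicle coat and cargo receptor genes 16 fell (median -0.29), with SEC23B at -0.79. Of 14 genes of ER-associated degradation 11 fell (median -0.41), with the segregase VCP at -0.76. The sensors of unfolded protein did not follow. ATF6 (-0.12), EIF2AK3 (-0.15) and ERN2 (0.05) did not pass, ERN1 (0.15) and the ATF6 protease MBTPS1 (0.30) rose, and XBP1 fell by 0.37 on the log2 scale.

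Cytosolic folding and degradation fell alongside. In the list of cytosolic heat shock proteins and the chaperonin, which also holds mitochondrial HSPA9, HSPD1 and HSPE1, 19 of 24 genes fell with a median of -0.48. HSPH1 had 18.5, 28.7 and 50.6 CPM in fasted pigs and 40.8, 80.5 and 218 CPM in fed pigs (-1.49, SE 0.15, adjusted p = 4.3e-11). HSP90AA1 (-1.02) and HSPA8 (-0.81) fell, whereas HSP90AB1 was at 0.18 and did not pass. All but 1 of 28 proteasome genes fell, the exception being PSMC5 (-0.06), with a median of -0.43. The falls covered 11 of 11 genes of the 20S core, 5 of 6 ATPases of the 19S cap and 11 of 11 further cap subunits. They ran between -0.84 for the deubiquitinase PSMD14 and -0.20 for PSMD4.

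Ribosomal protein genes moved against this trend. All 34 cytosolic ribosomal protein genes tested rose, 17 of the large and 17 of the small subunit, with a median of 0.51 and a range of 0.29 to 0.76. RPS20 had 465, 807 and 1035 CPM in fasted pigs and 342, 444 and 651 CPM in fed pigs (0.76, SE 0.10, adjusted p = 8.4e-09). Many such genes have processed copies in the genome, so their counts depend on how reads of copies were assigned. Of 14 translation factors 6 rose and 7 fell, with a median of -0.16. EEF1B2 (0.93), EIF4B (0.88) and EEF2 (0.75) rose, while the cap-binding EIF4E (-0.50), its scaffold EIF4G1 (-0.44), EIF2S1 (-0.51) and EIF4A1 (-0.33) fell. Factors that assemble ribosomes in the nucleolus fell in 15 of 28 cases with no rise (median -0.34), for example NOLC1 (-0.62) and UTP20 (-0.68), and only 6 falls were left in the marker fit. Of 19 cytosolic tRNA synthetases 13 fell and 2 rose, KARS1 (0.49) and QARS1 (0.48).

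The amino acid stress list, targets of ATF4, held 12 falls and 5 rises among 24 genes. The serine enzyme PHGDH had 0.229, 0.848 and 3.10 CPM in fasted pigs, against 0.534, 4.25 and 52.9 CPM in fed pigs (-3.01, SE 0.41, adjusted p = 3.6e-08), but 11 of 16 fasted pigs lay within the fed range. Asparagine synthetase ASNS had 8.60, 12.3 and 25.5 CPM in fasted pigs and 12.2, 27.2 and 109 CPM in fed pigs (-1.55, SE 0.24, adjusted p = 4.4e-07). PSAT1 (-1.08), PYCR1 (-1.22), the cystine carrier SLC7A11 (-1.66) and GDF15 (-1.33) also fell. The 5 that rose were STC2 (1.35), CHAC1 (1.27), SESN2 (0.91), SLC3A2 (0.80) and ALDH18A1 (0.42). DDIT4 (0.17) and FGF21 (-0.04) did not pass.

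**Figure D3:**
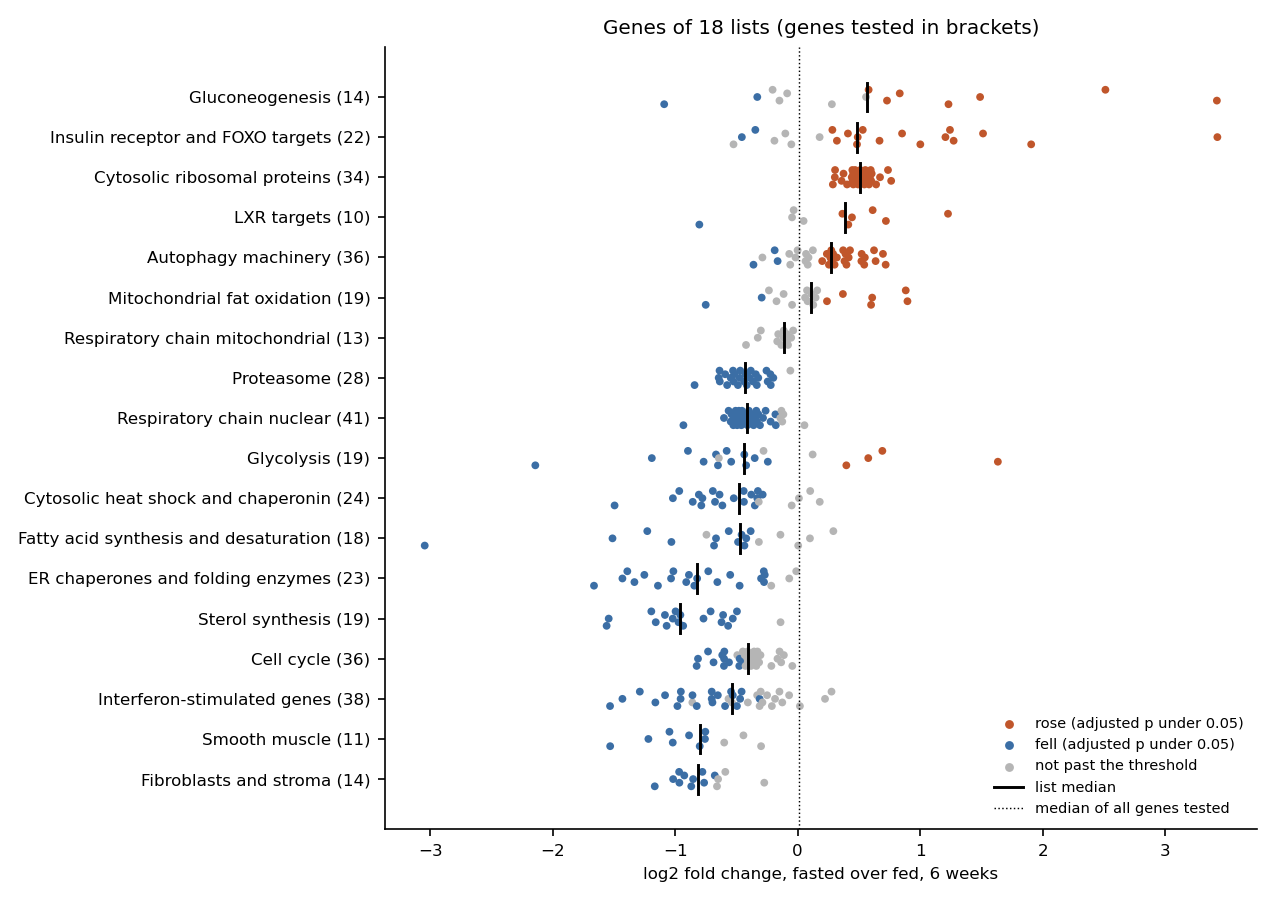
Log2 fold change, fasted over fed at 6 weeks (x axis), of each gene tested in 18 gene lists (y axis), 1 point per gene, orange where it rose, blue where it fell and grey where it did not pass; bars mark list medians and the dotted line the median of all genes. Ribosomal protein genes lie to the right at a median of 0.51, and proteasome and nuclear respiratory chain genes to the left at -0.43 and -0.41.

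The respiratory chain separated by genome. Of 41 nuclear genes 36 fell and none rose, with a median of -0.41. Falls were seen in 18 of 20 genes of complex I, 5 of 5 of complex III, 6 of 8 of complex IV and 7 of 8 of complex V. ATP5MC1, a subunit of the rotor ring of ATP synthase, had 57.5, 104 and 134 CPM in fasted pigs and 118, 181 and 275 CPM in fed pigs (-0.93, SE 0.13, adjusted p = 1.1e-07). Cytochrome c, CYCS, had 62.4, 85.5 and 179 CPM in fasted pigs and 107, 197 and 276 CPM in fed pigs (-1.06, SE 0.15, adjusted p = 7.4e-08). None of the 13 genes of the mitochondrial genome passed the edgeR test, with a median of -0.11 and values between -0.42 for ND6 and -0.04 for ATP6. At an unadjusted p under 0.05, 1 of the 13 was lower, and DESeq2 and limma-voom called none. In the citric acid cycle 10 of 20 genes fell and none rose, among them DLST with 75.5, 96.3 and 114 CPM in fasted pigs and 113, 147 and 172 CPM in fed pigs (-0.60, SE 0.07, adjusted p = 9.9e-10), while citrate synthase CS stood at 0.00.

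Insulin signalling and FOXO targets rose in 15 of 22 genes, with 2 falls and a median of 0.49. The insulin receptor INSR had 5.60, 14.9 and 29.8 CPM in fasted pigs and 3.71, 6.35 and 11.8 CPM in fed pigs (1.27, SE 0.19, adjusted p = 1.8e-07), with 15 of 16 fasted pigs above every fed pig. IRS2 (1.21), FOXO4 (1.00), FOXO6 (1.51), SESN1 (0.67) and the ubiquitin ligase FBXO32 (1.24) rose. FOXO1 (-0.05) and FOXO3 (-0.10) did not pass.

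Autophagy genes rose in 23 of 36 cases, with 3 falls and a median of 0.28. WIPI2, which recruits the conjugation machinery to the growing membrane (chromosome 3, 3800170 to 3830973), had 48.6, 57.0 and 69.9 CPM in fasted pigs, against 31.2, 37.4 and 47.6 CPM in fed pigs (0.64, SE 0.06, adjusted p = 7.1e-12). These groups did not overlap. The lipid transfer proteins ATG2A (0.72) and ATG2B (0.62), ATG12 (0.43), the initiating kinases ULK1 (0.52) and ULK2 (0.55), MAP1LC3A (0.70) and the regulator TFEB (0.52) rose. The cargo receptor SQSTM1 (-0.06) and BECN1 (0.09) did not pass, and ATG4A (-0.36), ATG3 (-0.16) and TFE3 (-0.19) fell. Lysosomal genes did not rise with them, at 3 rises and 11 falls of 35. Of the falls 8 were among the 10 genes of the proton pump, such as ATP6V0A1 (-0.53), and of the 25 hydrolases, membrane proteins and lipid exporters 3 rose (ARSB and LAMP1 among them) and 3 fell (NPC1, CTSH and GLA).

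Of 14 genes of sugar digestion and transport 7 rose and 1 fell. SI, the sucrase-isomaltase, had 2664, 5278 and 8684 CPM in fasted pigs and 3381, 5082 and 5886 CPM in fed pigs (0.08, adjusted p = 0.74). The glucose carrier SLC5A1 had 2012, 3487 and 5244 CPM in fasted pigs and 2091, 3820 and 4271 CPM in fed pigs (-0.08, adjusted p = 0.73). Neither passed, and nor did SLC2A2 (-0.15) or MGAM (-0.22). The fructose carrier SLC2A5 rose (0.69), with 132, 177 and 291 CPM in fasted pigs and 78.5, 112 and 182 CPM in fed pigs. GALT, an enzyme of galactose breakdown, had 69.0, 95.4 and 142 CPM in fasted pigs and 29.9, 39.9 and 68.8 CPM in fed pigs with no overlap (1.15, SE 0.12, adjusted p = 7.5e-11). Of 14 peptidases ACE (0.73), MME (0.54, adjusted p = 0.11 in the marker fit) and CPM (0.43) rose and none fell. ANPEP and DPP4 did not pass (0.20 and -0.05).

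Of 20 peptide and amino acid transporters 5 rose and 2 fell. SLC7A8, a basolateral exchanger of neutral amino acids, had 199, 617 and 1152 CPM in fasted pigs, against 31.6, 130 and 692 CPM in fed pigs (1.74, SE 0.36, adjusted p = 9.4e-05). Its partner chain SLC3A2 (0.80), the aromatic carrier SLC16A10 (1.30), SLC7A7 (0.87) and the mitochondrial ornithine carrier SLC25A15 (0.71) rose. The apical carriers SLC6A19 (-0.13), SLC7A9 (0.23), SLC3A1 (0.01) and the peptide carrier SLC15A1 (-0.08) did not pass, and SLC1A5 (-0.71) and SLC38A2 (-0.64) fell. OAT, which links glutamate and ornithine on the way to citrulline and proline, had 1503, 2627 and 3978 CPM in fasted pigs and 645, 1037 and 1889 CPM in fed pigs (1.29, SE 0.18, adjusted p = 8.4e-08). CPS1 (0.14), OTC (0.19) and ASS1 (-0.43) did not pass.

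The bile acid genes held the deepest fall of the named genes. SLC10A2, the apical sodium-dependent bile acid transporter (chromosome 11, 71328801 to 71348779), had 0.285, 0.603 and 6.12 CPM in fasted pigs, against 7.00, 30.5 and 103 CPM in fed pigs (-4.85, SE 0.51, adjusted p = 4.3e-11). The groups met without crossing at fasted pig 51, with 6.12 CPM, and fed pig 46, with 7.00 CPM. The cytosolic bile acid binder FABP6 was lower (0, 0.709 and 12.3 CPM in fasted pigs, 0.174, 6.43 and 107 CPM in fed pigs, -2.68, adjusted p = 0.01), but without fed pig 54 it did not pass (-1.73, adjusted p = 0.089). The exporters SLC51A (-0.53) and SLC51B (-0.81) fell. SLC10A2, FABP6 and SLC51A, all lower, and FGF19, given below and called as a rise, are also markers of the ileum. Whether the sampling site moved with the groups was not tested. CYP27A1, which oxidises cholesterol, rose, with 14.2, 65.0 and 121 CPM in fasted pigs and 3.86, 13.1 and 67.9 CPM in fed pigs (1.75, SE 0.33, adjusted p = 2.3e-05). The receptor NR1H4 did not pass (-0.16). FGF19, the hormone that bile acids induce in the ileum, stood at 0, 0.414 and 9.34 CPM in fasted pigs and 0, 0.173 and 0.909 CPM in fed pigs. Its call (2.12, adjusted p = 0.0023) was lost in limma-voom (0.71, adjusted p = 0.44) and in the marker fit. With 6-week pigs only FGF19 was not called either, and the ileum markers gave 0 rises and 3 falls.

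Calcium genes fell in 4 of 8 cases and rose in 1, the phosphate carrier SLC20A1 (0.20), with a median of -0.89. The list held 0 rises and 5 falls in the marker fit, and 0 rises and 4 falls in DESeq2. The vitamin D receptor VDR (chromosome 5, 78205807 to 78266505) had 217, 285 and 458 CPM in fasted pigs, against 464, 681 and 968 CPM in fed pigs (-1.21, SE 0.13, adjusted p = 4.3e-11), without overlap. Its targets S100G, the calcium-binding calbindin of enterocytes, and ATP2B1, the calcium pump of the basolateral membrane, fell by 1.15 and 0.66 on the log2 scale. S100G had 345, 1138 and 2010 CPM in fasted pigs and 1116, 2515 and 5508 CPM in fed pigs. The apical calcium channel TRPV6 did not pass (0.28). CALB1 was called (-1.11, adjusted p = 0.028), but not without fed pig 48 or fed pig 60 or in limma-voom (-0.95, adjusted p = 0.068).

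Metal importers moved in both directions. The iron importer SLC11A2 had 39.2, 51.8 and 80.4 CPM in fasted pigs and 63.1, 111 and 145 CPM in fed pigs (-1.04, SE 0.15, adjusted p = 1.7e-07), and TFRC (-0.52) fell, while the heme oxygenases HMOX1 (0.76) and HMOX2 (0.85) and the ferric reductase CYBRD1 (0.45) rose. In the zinc list SLC39A8 had 8.26, 19.2 and 54.2 CPM in fasted pigs and 2.95, 4.81 and 20.4 CPM in fed pigs (1.52, SE 0.25, adjusted p = 2.4e-06), and SLC39A14 rose by 0.87, but the main apical zinc importer SLC39A4 fell by 1.06 on the log2 scale. Metallothionein MT1X, which buffers zinc and copper, had 7.14, 31.9 and 87.5 CPM in fasted pigs, against 0.809, 2.19 and 14.9 CPM in fed pigs (3.12, SE 0.38, adjusted p = 2.2e-09). The fasted pig with least MT1X was again 51, and 3 fed pigs, 46 among them, reached the fasted range. MT3 rose by 2.64 on the log2 scale. Metallothioneins are near-identical copies, so reads may have been divided among them.

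In the list of vitamin A genes 3 of 16 rose and 6 fell, with a median of -0.08, and in the marker fit 6 rose and 5 fell. Without fed pig 46 5 rose. Outside that list, 2 retinoid enzymes were among the 12 largest rises. RDH5, a retinol dehydrogenase, had 3.46, 10.6 and 25.9 CPM in fasted pigs and 0.0462, 1.73 and 7.96 CPM in fed pigs (2.54, SE 0.34, adjusted p = 2.6e-08). SDR16C5, another retinol-oxidising enzyme, had 6.21, 51.6 and 160 CPM in fasted pigs and 1.90, 7.11 and 37.9 CPM in fed pigs (2.56, SE 0.36, adjusted p = 1.1e-07). In 14 of 16 fasted pigs SDR16C5 was above every fed pig, and in 11 of 16 RDH5 was. In the vitamin A list BCO1, which splits beta-carotene, rose by 1.80 and DHRS3, which reduces retinal, by 0.91. ISX, the homeobox factor that represses BCO1 in the mouse, fell (-0.64). CYP26B1, which clears retinoic acid, had 0.380, 0.731 and 1.07 CPM in fasted pigs and 1.05, 1.95 and 4.07 CPM in fed pigs (-1.59, SE 0.22, adjusted p = 8.5e-08), and the retinoic acid receptor RARB fell (-0.66).

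Enzymes against foreign compounds rose in 7 of 21 cases, 4 without the filter on low counts, and fell in 3. CYP1A1, a target of the aryl hydrocarbon receptor, was the most variable of the large rises, with 22.6, 1533 and 6179 CPM in fasted pigs and 9.53, 174 and 1472 CPM in fed pigs (2.73, SE 0.70, adjusted p = 0.0014). Only 8 of 16 fasted pigs were above every fed pig, and 3 were below the fed median. Other targets of that receptor, AHRR (0.19), TIPARP (0.27) and CYP1B1 (0.06), did not pass. The nuclear receptor NR1I3 rose (1.53), with 1.45, 6.55 and 10.4 CPM in fasted pigs and 0.857, 2.14 and 4.28 CPM in fed pigs, as did SULT1B1 (0.89) and FMO1 (0.86). Oxidant defence fell in 11 of 24 genes and rose in 3. GPX2, the gut glutathione peroxidase, had 0.572, 6.17 and 21.9 CPM in fasted pigs and 13.6, 36.4 and 78.5 CPM in fed pigs (-2.43, SE 0.42, adjusted p = 5.7e-06). SRXN1, which repairs peroxiredoxins, had 16.2, 27.2 and 42.7 CPM in fasted pigs and 43.3, 61.0 and 145 CPM in fed pigs with no overlap (-1.32, SE 0.16, adjusted p = 1.4e-09). The superoxide and peroxide producers NOX1 (-1.91) and DUOX2 (-1.45) fell, and NOS2 did not pass (-0.88).

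Several of the largest changes lay outside these lists. PNP, the phosphorylase of purine salvage (chromosome 7, 78426838 to 78447029), had 20.8, 31.3 and 51.6 CPM in fasted pigs, against 64.4, 138 and 266 CPM in fed pigs, without overlap (-2.11, SE 0.25, adjusted p = 8.5e-10). HAS2, which makes hyaluronan, had 1.70, 3.78 and 27.2 CPM in fasted pigs and 2.71, 68.1 and 257 CPM in fed pigs (-3.65, SE 0.41, adjusted p = 3e-10), and 4 fed pigs lay within the fasted range. LPL, the lipase of capillary walls, had 6.47, 15.0 and 45.8 CPM in fasted pigs and 15.8, 67.6 and 140 CPM in fed pigs (-2.11, SE 0.33, adjusted p = 6.3e-07). LPL is also a fat cell marker. Of the 4 fat cell markers tested LPL and CIDEC (-0.71) fell, and FABP4 (-0.11) and PLIN1 (0.08) did not pass. Their summed level was 62.8, 83.2 and 146 CPM in fasted pigs and 136, 184 and 265 CPM in fed pigs, with each fasted pig below the fed median, LEP was at 0 in all 32 pigs, and the part of fat tissue in these values was not tested. Falls of this size were also seen in COL8A1 (-2.46), LONRF3 (-2.32), LRRC27 (-2.19), LIPG (-2.15) and IGFBP5 (-2.00, and -1.21 in the marker fit). Large rises were FOLH1B (3.00), the receptor phosphatase PTPRR (2.81), MROH7 (2.66) and FRMD1 (2.17). PTPRR had 6.54, 20.2 and 49.6 CPM in fasted pigs and 0.285, 2.64 and 7.47 CPM in fed pigs, with 15 of 16 fasted pigs above every fed pig.

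Of 12 absorptive enterocyte markers APOA1 and RBP2 rose and APOA4 and KRT20 fell. None of 12 crypt stem cell markers passed in edgeR, DESeq2 or limma-voom, and 1 was higher at an unadjusted p under 0.05, while 3 rose in the marker fit. OLFM4 had 193, 1701 and 3286 CPM in fasted pigs and 726, 1886 and 5413 CPM in fed pigs (-0.40, adjusted p = 0.42). In the list of enterocyte transcription factors and differentiation genes 9 of 18 rose and 3 fell, against 4 rises and 5 falls in the marker fit. The rises ran between 0.24 for GATA4 and 0.87 for MAF, with GATA6 at 0.52 (0.31 in the marker fit). Goblet cell genes fell in 3 of 9 cases, with AGR2, a folding enzyme of mucins, at 79.9, 123 and 262 CPM in fasted pigs and 214, 284 and 445 CPM in fed pigs (-1.17, SE 0.17, adjusted p = 2.5e-07), MUC2 (-0.43) and SPDEF (-0.44). Of 21 enteroendocrine genes 4 rose and 3 fell. The rises numbered 2 in the marker fit, 1 without fasted pig 39 or without the filter on low counts, and 2 without fasted pig 43 or fed pig 52, 58 or 62. The hormone gene CCK fell (-0.34, adjusted p = 0.032), with 6.65, 10.8 and 16.4 CPM in fasted pigs and 8.98, 13.7 and 21.3 CPM in fed pigs. Its call was lost in 7 fits that left out 1 pig and without pigs 46 and 51 (adjusted p = 0.064), and it stood at -0.55 in the marker fit. GHRL, which encodes ghrelin, fell (-0.77, adjusted p = 0.023), a call lost without fed pig 48 and in limma-voom (-0.57, adjusted p = 0.13). GCG (0.07), GIP (0.19) and CHGA (0.01) did not pass. Of 8 tuft cell markers RGS13 (0.56), TRPM5 (0.51) and GFI1B (0.45) rose and DCLK1 (-0.92) and PTGS1 (-0.63) fell. In the marker fit 0 of these 8 rose and 1 fell, and without fasted pig 35 1 rose. The trefoil peptide genes TFF1 (-3.87) and TFF2 (-1.19) fell. TFF1 was low, with 0, 0.129 and 1.67 CPM in fasted pigs and 0.0434, 2.29 and 14.8 CPM in fed pigs. In TFF1, 14 of 16 fasted pigs lay within the fed range. TFF2 had 73.7, 113 and 270 CPM in fasted pigs and 114, 253 and 746 CPM in fed pigs. TFF1 and TFF2 are also gastric markers, and GKN1, PGC and ATP4A, which define gastric epithelium, were at or near 0 in all 32 pigs.

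Of 36 cell cycle genes 12 fell and none rose (33.3% against 18.4% of all genes), with a median of -0.41. TK1, an S phase enzyme, had 6.55, 20.4 and 45.6 CPM in fasted pigs and 15.0, 37.8 and 60.1 CPM in fed pigs (-0.82, SE 0.23, adjusted p = 0.0035). TOP2A had 29.1, 76.5 and 135 CPM in fasted pigs and 42.8, 93.0 and 134 CPM in fed pigs and did not pass (-0.30, adjusted p = 0.29). Pigs 51 and 46 held the ends of these ranges, 51 as the highest fasted and 46 as the lowest fed pig in TOP2A. Without both pigs 21 of the 36 genes fell, in limma-voom 19, without fed pig 62 7 and in the marker fit 5. CCND1, a growth-dependent cyclin kept in the list of WNT targets, fell by 0.97 on the log2 scale, and MYC (0.08), AXIN2 (-0.07) and LGR5 (0.41) did not pass.

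Of 11 genes of the EGF family 4 rose and 3 fell. AREG, an epithelial ligand, had 7.48, 14.7 and 45.7 CPM in fasted pigs and 15.7, 47.7 and 119 CPM in fed pigs (-1.58, SE 0.28, adjusted p = 5.8e-06). NRG1, the ligand of ERBB3, had 0.637, 3.44 and 6.34 CPM in fasted pigs and 6.84, 9.95 and 19.7 CPM in fed pigs, without overlap (-1.54, SE 0.24, adjusted p = 7.6e-07, and -0.94 in the marker fit). HBEGF rose (0.71). The receptor ERBB2 had 172, 318 and 460 CPM in fasted pigs and 84.7, 116 and 273 CPM in fed pigs (1.33, SE 0.18, adjusted p = 6.1e-08), and ERBB3 had 816, 1231 and 1551 CPM in fasted pigs and 540, 674 and 1079 CPM in fed pigs (0.79, SE 0.10, adjusted p = 4.5e-09). The feedback inhibitor ERRFI1 fell by 0.78 on the log2 scale.

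Of 17 tight junction genes CLDN3 (0.46), MARVELD3 (0.43) and TJP3 (0.20) rose, and the pore-forming CLDN2 fell, with 137, 212 and 338 CPM in fasted pigs and 199, 406 and 570 CPM in fed pigs (-0.84, SE 0.14, adjusted p = 1.4e-06). TJP3 was lost in the marker fit, in which MARVELD3 stood at 0.24 and 5 genes of the list fell. Among 23 genes of chloride and fluid transport the water channels AQP8 (1.70), AQP10 (1.35) and AQP1 (0.73) rose, and the potassium channel subunit KCNE3 fell (-0.84). The list gave 5 rises and 4 falls, against 2 and 5 in the marker fit and 5 and 8 in limma-voom. AQP8 had 54.1, 333 and 715 CPM in fasted pigs and 21.1, 100 and 214 CPM in fed pigs.

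Interferon-stimulated genes fell in 21 of 38 cases with no rise, a median of -0.53 and wide spread within both groups. RSAD2 had 115, 227 and 1858 CPM in fasted pigs, against 239, 1050 and 3048 CPM in fed pigs (-1.53, SE 0.35, adjusted p = 0.00033). ISG15 had 60.5, 105 and 1097 CPM in fasted pigs and 82.5, 623 and 1299 CPM in fed pigs (-1.29, SE 0.35, adjusted p = 0.0027). IFIT1 had 204, 284 and 2042 CPM in fasted pigs and 255, 937 and 2151 CPM in fed pigs (-0.95, SE 0.29, adjusted p = 0.0066). In all of these fasted pig 45 was the highest fasted pig and fed pig 46 the lowest fed pig. Fits that left out 1 pig gave 14 to 26 falls, limma-voom gave 33 and the marker fit 28. Antigen processing for MHC class I fell in 2 of 11 genes, ERAP1 (-0.35) and TAPBP (-0.25, lost in 4 of the fits that left out 1 pig). No class II gene of 8 passed in edgeR, where 1 was higher and 1 lower at an unadjusted p under 0.05, DESeq2 called 0 and limma-voom 1, and 5 rose in the marker fit. The chemokine CXCL8 had 24.9, 37.3 and 66.6 CPM in fasted pigs and 44.0, 65.3 and 125 CPM in fed pigs (-0.82, SE 0.22, adjusted p = 0.0019), and CXCL2 fell as well (-0.98).

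**Figure D4:**
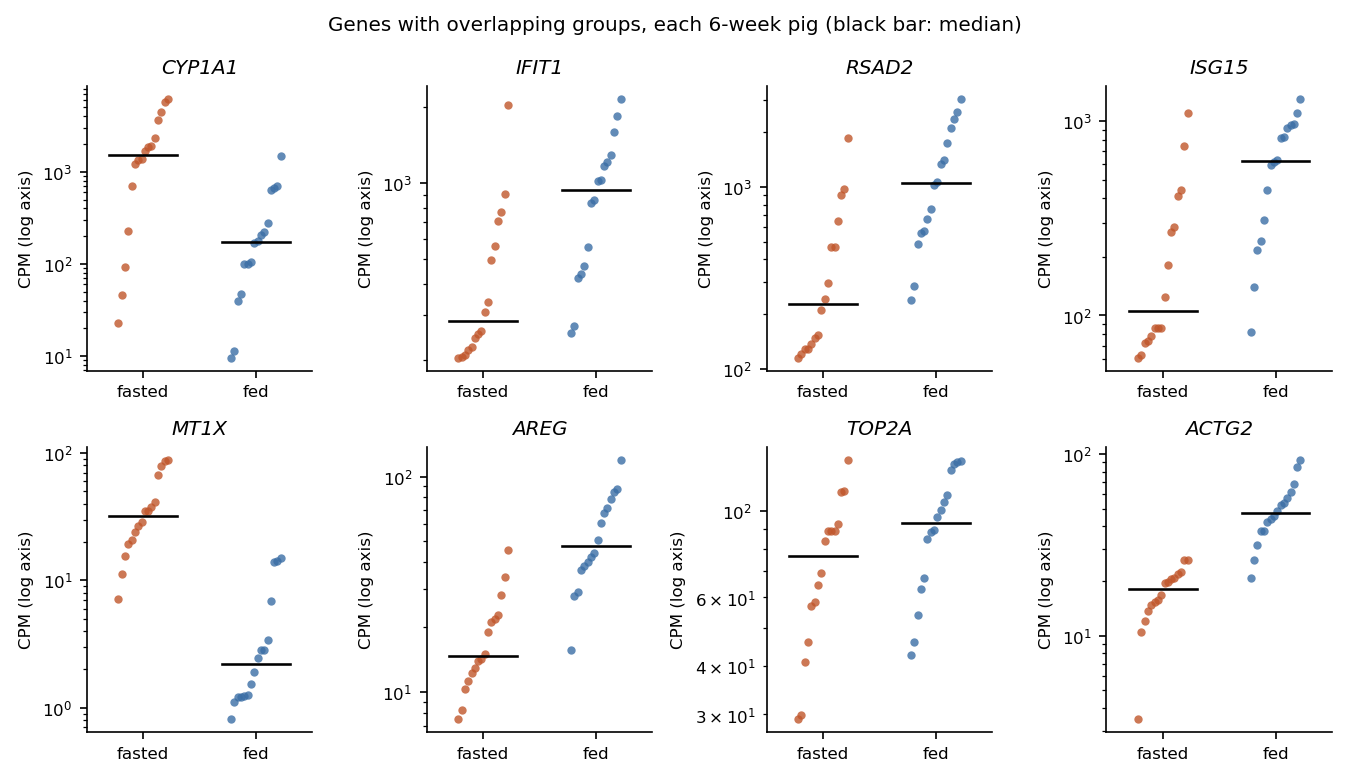
CPM on a log axis (y) of 8 genes whose groups overlap, fasted left and fed right (x), 1 point per 6-week pig spread sideways by rank, black bars at group medians. CYP1A1 spans 22.6 to 6179 CPM and IFIT1 204 to 2042 CPM among fasted pigs, and the groups of TOP2A overlap.

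Some lymphocyte markers rose, and the counts below stand beside 22.7% of all genes that rose and 18.4% that fell. Of 15 cytotoxic lymphocyte IDs 5 rose, ITGAE (0.50), CCL5 (0.53), KLRK1 (0.65), TBX21 (0.40) and XCL1 (0.41), and their summed level was 1081, 1587 and 2970 CPM in fasted pigs and 574, 1217 and 2554 CPM in fed pigs. Of 14 T cell markers 5 rose, among them CD3E (0.41, lost without fasted pig 57 or fed pig 62 and in the marker fit), a count that was 2 to 7 in fits that left out 1 pig, with 2 without fasted pig 57 or fed pig 62. It was 3 without pigs 46 and 51, in DESeq2, with DESeq2 size factors and with library size alone. Without the filter on low counts 1 rose, in the marker fit 4 and in limma-voom 6. None of 10 B cell markers passed in edgeR, where 0 were past an unadjusted p of 0.05. DESeq2 called 1 as lower and limma-voom 0, and 3 fell without fasted pig 41. In the marker fit 3 rose, but the level of these same markers is part of that model, so its calls on them were bound by its construction. Plasma cell genes fell in 4 of 10 cases (DERL3, XBP1, PRDM1 and TXNDC5, the last lost in the marker fit), of which DERL3, XBP1 and TXNDC5 also serve the secretory pathway.

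Markers of smooth muscle, fibroblasts and blood endothelium fell or did not pass. Of 11 smooth muscle genes 8 fell (median -0.80), and their summed level was 50.7, 180 and 282 CPM in fasted pigs against 173, 310 and 529 CPM in fed pigs, and each fasted pig lay below the fed median. ACTG2, the enteric smooth muscle actin, had 3.45, 18.1 and 25.9 CPM in fasted pigs and 20.8, 47.0 and 92.1 CPM in fed pigs (-1.53, SE 0.28, adjusted p = 1.1e-05). Of 14 fibroblast and stroma genes 10 fell (median -0.82), and their sum was 310, 969 and 1518 CPM in fasted pigs against 810, 1544 and 3019 CPM in fed pigs. COL1A2 had 26.0, 84.7 and 130 CPM in fasted pigs and 75.6, 146 and 285 CPM in fed pigs (-0.97, SE 0.28, adjusted p = 0.0047). Blood endothelial genes fell in 4 of 11 cases (EMCN, ENG, KDR and FLT1). Of 7 lymphatic endothelial genes 0 passed in edgeR (median -0.02), 1 was lower at an unadjusted p under 0.05, DESeq2 and limma-voom each called 1 as lower, and 3 rose in the marker fit. Of 7 genes listed for enteric neurons and glia 4 fell, GFAP (-1.05), RET (-0.80), STMN2 (-0.78) and SNAP25 (-0.46). In the marker fit 2 fell, and with 6-week pigs only 2 fell, with a list median of -0.12 against -0.46. GFAP, RET and SNAP25 were low, with medians of 0.195, 0.291 and 0.544 CPM in fasted pigs and 0.512, 0.527 and 0.776 CPM in fed pigs. ERBB3 rose, and epithelial cells express it too. In the marker fit, which holds the smooth muscle markers level by its construction, 2 smooth muscle genes, no fibroblast gene and no endothelial gene fell, 2, 4 and 5 of them rose, and COL1A2 stood at -0.03. In that fit 19 ER chaperones, 18 sterol genes, 39 nuclear respiratory chain genes and 28 proteasome genes fell. Rises numbered 34 for ribosomal proteins and 17 for autophagy. Whether the scrapings of fasted pigs held less of this tissue was not tested.

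Clock genes rose in 5 of 18 cases and fell in 1, beside 22.7% of all genes that rose and 18.4% that fell. NPAS2, a partner of BMAL1, had 43.8, 57.0 and 85.9 CPM in fasted pigs and 25.1, 29.8 and 41.4 CPM in fed pigs, without overlap (0.93, SE 0.12, adjusted p = 8.4e-09). BHLHE41 (1.36), TEF (0.66) and PER1 (0.50, adjusted p = 0.056 in the marker fit) also rose. BMAL1 (0.17), CLOCK (0.04), PER2 (0.02) and NR1D1 (0.04) did not pass, and times of slaughter were not among the labels. Of the glucocorticoid targets FKBP5 had 35.9, 60.5 and 96.6 CPM in fasted pigs and 36.5, 60.0 and 86.3 CPM in fed pigs (0.04, adjusted p = 0.83), while the receptor NR3C1 rose by 0.42 on the log2 scale. Apoptosis genes gave 4 rises of 18, BBC3 (0.89), BMF (0.76), CASP9 (0.55) and FAS (0.43), and 4 falls, CYCS, BIRC3, BAK1 and DIABLO, against 7 falls in the marker fit, in limma-voom and without fasted pig 57.

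The response at 6 weeks differed from that at 4 weeks in 7556 genes (53.7%) by the interaction test of edgeR, which takes the fasting change at 6 weeks minus that at 4 weeks. At 4 weeks 63.4% of the genes passed, 4768 as rises and 4141 as falls. Of the 5785 genes called at 6 weeks, 2118 passed at 4 weeks in the same direction, 1606 in the opposite direction and 2061 did not pass there. Age, weaning, diet and housing all changed between the ages and cannot be told apart. PDK4 had a log2 fold change of 0.33 at 4 weeks (adjusted p = 0.17) and a difference between the ages of 3.09. PCK1 stood at 0.01 at 4 weeks and differed by 3.41, and G6PC1 stood at 0.03 and differed by 2.49. SLC10A2, at -0.28 at 4 weeks, differed by -4.57, and HSPA5, at -0.24, by -1.42. None of these genes passed at 4 weeks. Genes that moved in opposite directions at the ages were LPL (2.49 at 4 weeks), PNP (1.49), GPX2 (1.41), IFIT1 (4.04), AREG (2.25), ASNS (1.95) and INSR (-0.96).

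The gene lists differed in both senses. Interferon-stimulated genes, 21 of 38 lower at 6 weeks, had 37 rises at 4 weeks, and 37 had a difference below 0. Ribosome assembly genes had 27 rises of 28 at 4 weeks, with 27 differences below 0, and cell cycle genes 33 rises of 36, with 34 differences below 0. A difference below 0 was also found for 24 of 28 proteasome genes and 18 of 19 sterol genes. For fat oxidation 14 of 19 mitochondrial and 15 of 15 peroxisomal genes had a difference above 0. At 4 weeks 15 of the mitochondrial and 13 of the peroxisomal genes had fallen. Autophagy genes, with 4 rises and 16 falls at 4 weeks, differed above 0 in 22 of 36 cases. Mitochondrially encoded genes had all fallen at 4 weeks, and 12 of 13 differed above 0. Some lists moved in the same direction at both ages. Ribosomal proteins had 32 rises of 34 at 4 weeks, with 15 differences past the threshold. The nuclear respiratory chain had 37 falls of 41 there, with 7 differences. Of 14 fibroblast genes 8 fell there, and for 0 did the difference pass in edgeR. MT1X (3.80 at 4 weeks), VDR (-1.12) and PGK1 (-0.78) were single genes whose difference did not pass.

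**Figure D5:**
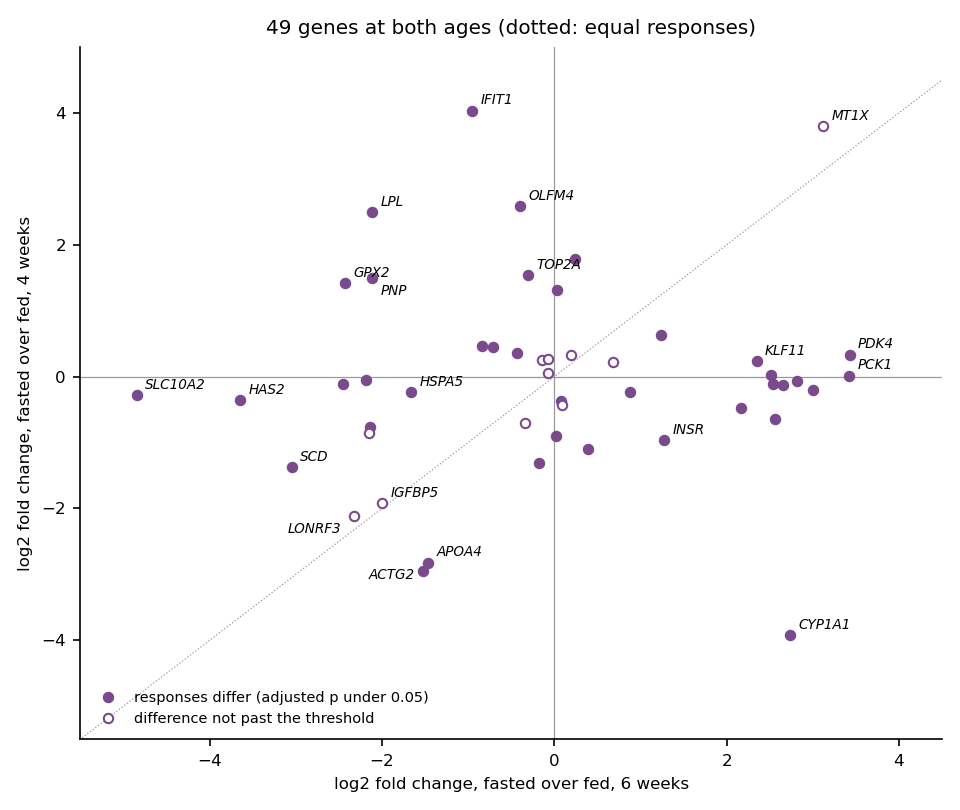
Log2 fold change, fasted over fed, at 6 weeks (x axis) and at 4 weeks (y axis) of 49 named genes, 1 point per gene, filled where the 2 responses differ in the interaction test (38 genes) and open where they do not pass. PDK4, PCK1 and KLF11 lie far right near 0 on the y axis, and IFIT1, LPL, PNP and GPX2 lie above 0 at 4 weeks and below 0 at 6 weeks.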

How the data were processed

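RNA of jejunal scrapings from 64 pigs was sequenced on a BGISEQ-500, per the labels' protocols. The authors deposited raw counts per Ensembl gene ID, and the submitters' processing notes name STAR, HTSeq and the build Sscrofa11.1. Versions and the strand setting are not given in the sources used here. The labels describe each sample as a separate pig. Left out were 5 HTSeq summary rows; at 6 weeks they held, per library, 5.90 to 8.32% of reads without a feature, 6.07 to 7.32% ambiguous and 2.73 to 4.07% not uniquely aligned, as shares of all rows. Symbols were found for 15029 of 31908 IDs. Coordinates are RefSeq's, matched by symbol.

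Counts of all 64 pigs were fitted in R 4.3.3 with edgeR 4.0.16 (TMM, filterByExpr, robust quasi-likelihood F test, a mean per group), leaving 14062 genes. Every adjusted p in the text is from this fit with Benjamini-Hochberg adjustment over all 14062, unless another fit is named beside it. Such fits are DESeq2 (1.42.0), limma-voom (limma 3.58.1), the marker fit and fits that left out pigs, each with its own adjustment. A gene rose or fell at an adjusted p under 0.05, and "did not pass" otherwise. The fit was tested on simulated data. Gene lists have no test: their calls and medians stand beside those of all genes. Alternatives were other size factors, no filter, DESeq2, limma-voom, 6-week pigs only, the marker fit and leaving out each pig; leaving out pigs 46 and 51 together was chosen after seeing the data.

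The members and lists were chosen with earlier results of these data known. Named genes are the 12 largest rises and 12 largest falls among called genes that have symbols and average 1 or more on the log2 CPM scale (immune receptor, mitochondrial and ribosomal genes left out), up to 4 called genes of smallest p per list, and 30 landmark genes. Other genes named were chosen after their values were seen. Some genes are not reported here.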

Additional observations from a re-analysis of the deposited data

Results flagged for a closer look

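The fasting responses at the 2 ages differed in the genes below by the interaction test of edgeR, given here as the log2 fold change at 6 weeks minus that at 4 weeks. Age, weaning, diet and housing changed together between the ages and cannot be told apart.

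The difference was above 0 for genes of fasting metabolism, PDK4 (3.09), PCK1 (3.41), G6PC1 (2.49), CPT1A (1.12), KLF11 (2.11), INSR (2.23) and FBXO32 (0.61). It was above 0 as well for the retinoid enzymes RDH5 (2.65) and SDR16C5 (3.20) and for CYP1A1 (6.66), whose 4-week log2 fold change was -3.93. Other genes with a difference above 0 were FOLH1B (3.21), PTPRR (2.88), MROH7 (2.78) and FRMD1 (2.64), which rose at 6 weeks. ACTG2 (1.42) and APOA4 (1.36) had a difference above 0 because they fell less at 6 weeks than at 4 weeks. FABP2 (1.49), MTTP (1.14), PER2 (0.93) and GCG (0.44) did not pass at 6 weeks and fell at 4 weeks.

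The difference was below 0 for the lipid and bile acid genes SCD (-1.67), LPL (-4.61) and SLC10A2 (-4.57). Among genes of crypts, secretion, junctions and interferon it was below 0 for OLFM4 (-2.99), TOP2A (-1.84), MUC2 (-0.79), PIGR (-1.53), CLDN2 (-1.31) and IFIT1 (-4.99). Others with a difference below 0 were GPX2 (-3.84), PNP (-3.60), HAS2 (-3.29), COL8A1 (-2.34), LRRC27 (-2.13), HSPA5 (-1.42), PFKFB3 (-1.38) and FKBP5 (-1.28).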

How the results depend on the processing

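Counts of genes that rose ran between 2700 and 3647 over the alternative fits and of those that fell between 2396 and 3112, against 3197 and 2588. Leaving out 1 pig gave 2845 to 3320 rises and 2376 to 2713 falls. Leaving out pigs 46 and 51, chosen after seeing the data, gave 3408 rises and 2809 falls. Without the filter on low counts 461 genes rose and 487 fell at least 2-fold, against 280 and 266. Interferon-stimulated genes that fell numbered 33 in limma-voom, against 21. In the marker fit, which by its construction holds the smooth muscle markers level, 2 smooth muscle and 0 fibroblast genes fell, against 8 and 10. Signs turned in 5 named genes, of which FLT1 alone had passed (-0.68). FKBP5 stood at -0.022 in the marker fit, -0.001 without pigs 46 and 51 and -0.046 to 0.08 with 1 pig left out. PER2 stood at -0.021 with library size alone, -0.004 without the filter, -0.002 in limma-voom and -0.024 to 0.073 with 1 pig left out. In the marker fit FLT1 stood at 0.002, GCG at -0.041 and SI at -0.023. The causes were not tested. Of the named genes' calls 31 were lost in the marker fit, 11 without the filter and 8 with library size alone. In limma-voom 5 were lost, with DESeq2 size factors 4 and in DESeq2 2. With 6-week pigs only, where 13483 genes were tested, 1 call was lost and 283 of the 289 named genes were unchanged. The remaining named genes were not compared in that fit, so its losses may be undercounted. No paired analysis was possible because fasted and fed pigs share no replicate number and the labels name no pen mates. A median SD of 0.315 (fasted) and 0.30 (fed) on the log2 scale limits how small a change can be called.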

Other observations

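Further genes without overlap between the groups belong to none of the comparisons above. TMEM252 had the largest log2 fold change of all genes tested (4.59), and UNKL, CMTM4, LIN9, TUBGCP4, EZH1 and STAT5B were also higher in every fasted pig than in any fed pig. AVPI1, NID2, C15orf48, MAP2K3, TPM4, SERHL2, CRELD1, AIFM1 and NSF were lower in every fasted pig. These genes were chosen after their values were seen.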
